A study of Mus musculus with 27 samples.

Results

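The transcripts described here are 6 genes whose RNA is characteristic of red blood cells and their precursors: the adult alpha globins Hba-a1 and Hba-a2, the adult beta globins Hbb-bs and Hbb-bt, Alas2 and Slc4a1. They were chosen by name from the 27304 genes of the deposited count table. The symbol matched for 5 of them. Hbb-bs was found by its Ensembl gene ID, ENSMUSG00000052305, which the table lists under the older symbol Hbb-b1. The other IDs are ENSMUSG00000069919 for Hba-a1, ENSMUSG00000069917 for Hba-a2, ENSMUSG00000073940 for Hbb-bt, ENSMUSG00000025270 for Alas2 and ENSMUSG00000006574 for Slc4a1.

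Bulk RNA was sequenced from hearts of male ApoE-/- mice of the strain C57BL/6J, 7 days after myocardial infarction (MI). ApoE-/- mice lack apolipoprotein E and have high plasma cholesterol. Every animal, controls included, ate a western type diet, starting with 4 weeks before the groups parted. Mice with chronic kidney disease (CKD) then had 0.3% adenine in that diet for 10 days and 0.15% adenine for 11 days, of which 4 came before the MI and 7 after it. Control mice stayed on the same diet without adenine. A library held either infarct tissue or remote myocardium, taken away from the infarct. There were 6 control remote, 8 CKD remote, 6 control infarct and 7 CKD infarct libraries, from 14 mice, of which 13 gave both regions. The hearts were rinsed in cold PBS before freezing, and no sample was sorted. Neither a blood count nor a measure of kidney function was analysed here, and every group carried the same genotype, western type diet and infarction, with adenine in the CKD groups only.

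Adult haemoglobin is a tetramer of alpha and beta chains, each holding a heme group that binds oxygen. Alas2 encodes the red-cell form of the first enzyme of heme synthesis, and Slc4a1 encodes band 3, the anion exchanger of the red-cell membrane. Mature mammalian red cells have no nucleus, but the youngest of them, the reticulocytes, still carry globin RNA, so whole heart tissue holds such RNA with its blood. The kidney is the main source of erythropoietin, the hormone that drives red-cell production, and chronic kidney disease is commonly accompanied by anaemia.

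The members of each globin pair can barely be told apart by coding sequence, which limits how reads are divided between them. In the GENCODE transcripts the coding sequences of Hba-a1 and Hba-a2 are 429 bases long and differ at 1 base, C381T. Those of Hbb-bs and Hbb-bt are 444 bases long and differ at 1 base, C417T. Positions are counted from 1 at the A of the start codon, and the gene named first has the first base. The 60 coding bases that end at each difference are shown because they carry the single base by which the copies differ, printed as a capital.
Hba-a1: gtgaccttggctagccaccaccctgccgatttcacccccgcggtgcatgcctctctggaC
Hba-a2: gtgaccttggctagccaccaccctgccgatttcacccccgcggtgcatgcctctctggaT
Hbb-bs: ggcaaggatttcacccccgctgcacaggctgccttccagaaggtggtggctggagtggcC
Hbb-bt: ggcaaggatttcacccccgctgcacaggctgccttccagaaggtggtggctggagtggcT

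Over whole transcripts, 71.3% of the 31-base windows of Hba-a1 also occur in Hba-a2, and 91.0% of those of Hba-a2 occur in Hba-a1. For the beta genes the shares are 66.9% of Hbb-bs and 59.4% of Hbb-bt. Each of the 4 pairs of an alpha with a beta gene shares 0 such windows. The split between alpha and beta is therefore better determined by sequence than the split within either pair, and the values of the single copies are uncertain to that extent.

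The promoters are shown because the globins and Alas2 varied together across libraries, as described further on. RefSeq promoter entries (build GRCm38.p6) matched 5 of the 6 genes. The 210 bases before the start of the transcript are given for Hba-a1 at chr11:32283462-32283671 on the plus strand, Hbb-bs at chr7:103827929-103828138 on the minus strand, Hbb-bt at chr7:103813924-103814133 on the minus strand and Alas2 at chrX:150547207-150547416 on the plus strand. Capitals mark matches to 3 motifs, each searched on both strands and printed as its reverse complement where it lies on the other strand. The first is GATAA, known to be bound by GATA factors. The second is CACCC, known to be bound by Krüppel-like factors in globin promoters. The third is CCAAT, known to be bound by CCAAT-binding factors.
Hba-a1: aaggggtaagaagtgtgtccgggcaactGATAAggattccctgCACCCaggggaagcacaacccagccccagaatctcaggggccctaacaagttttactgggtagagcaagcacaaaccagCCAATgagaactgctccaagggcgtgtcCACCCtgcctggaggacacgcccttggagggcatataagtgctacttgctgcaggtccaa
Hbb-bs: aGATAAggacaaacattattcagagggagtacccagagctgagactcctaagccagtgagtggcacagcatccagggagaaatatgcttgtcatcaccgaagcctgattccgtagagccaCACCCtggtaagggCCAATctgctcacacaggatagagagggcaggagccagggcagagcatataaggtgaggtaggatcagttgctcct
Hbb-bt: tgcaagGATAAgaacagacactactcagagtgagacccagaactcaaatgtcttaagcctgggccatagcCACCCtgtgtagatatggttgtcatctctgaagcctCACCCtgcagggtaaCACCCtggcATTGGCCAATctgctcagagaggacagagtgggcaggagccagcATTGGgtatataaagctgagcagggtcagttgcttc
Alas2: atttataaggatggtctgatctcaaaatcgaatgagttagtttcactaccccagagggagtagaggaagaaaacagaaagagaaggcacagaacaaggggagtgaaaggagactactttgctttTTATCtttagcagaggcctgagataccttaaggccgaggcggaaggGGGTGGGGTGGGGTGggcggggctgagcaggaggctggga

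The Hba-a1 and Hba-a2 promoter entries were identical at 247 of 247 aligned bases, and those of Hbb-bs and Hbb-bt at 178 of 243. GATAA and CACCC occurred in all 5 promoters over the 250 bases searched, and CCAAT in the 4 globin promoters. These are common strings: of 32851 promoter windows of the same length, 22.6% held GATAA, 52.0% CACCC and 33.9% CCAAT. In the Hbb-bs promoter the CACCC at position -90 and the CCAAT at position -76, relative to the start, had counterparts at -89 and -75 in Hbb-bt. No CCAAT was in the Alas2 window. No match overlaps another, although CCAAT matches on opposite strands adjoin in Hbb-bt. In Alas2 the CACCC matches at -40, -35 and -30, all on the other strand, also adjoin. A match is a description of the letters only, and the part of the promoters in the shared variation was not tested.

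The libraries held 14255456 to 42566498 counts. Cardiomyocyte genes were abundant throughout, with a sum over 12 genes of 88522 ± 21509 CPM, the counts of a gene relative to the scaled library total, in control remote libraries (SD, n = 6) and 21378 ± 10467 CPM in control infarct libraries (SD, n = 6). The CKD sums were 107545 ± 10390 CPM in remote (SD, n = 8) and 62451 ± 31275 CPM in infarct libraries (SD, n = 7). A few libraries stood apart from their region. The infarct libraries of CKD mice 9179 and 9172 had the highest cardiomyocyte sums of the infarct, 119175 and 88134 CPM, and the lowest Col1a1, a scar collagen, at 80.7 and 1651 CPM. The infarct library of control mouse 9171 had the lowest cardiomyocyte sum, 4405 CPM, the highest Col1a1, 20325 CPM, and the lowest Hbb-bs of the control infarcts. The remote library of control mouse 9180 had the lowest remote cardiomyocyte sum, 47653 CPM, and the highest remote Col1a1, 3864 CPM. The remote library of mouse 9179 carries a CKD title and a control treatment label, and was kept with CKD.

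Globin RNA was a small and highly variable share of every library. The 4 globins together took 0.00670% to 0.221% of the counts. Per kilobase of transcript, control remote libraries held on average 771 CPM of Hba-a2, 644 of Hba-a1, 582 of Hbb-bs, 309 of Hbb-bt, 4.21 of Alas2 and 0.119 of Slc4a1. Within libraries this order held for Hba-a2 over Hba-a1 in 27 of 27, for Hba-a1 over Hbb-bs in 24 of 27 and for Hbb-bs over Hbb-bt in 27 of 27. Hba-a2 ranked above Hba-a1 only after dividing by length, since its annotated transcript is 554 bases against 699. Alas2 and Slc4a1 were far below the globins in every group.

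**Figure D1:**
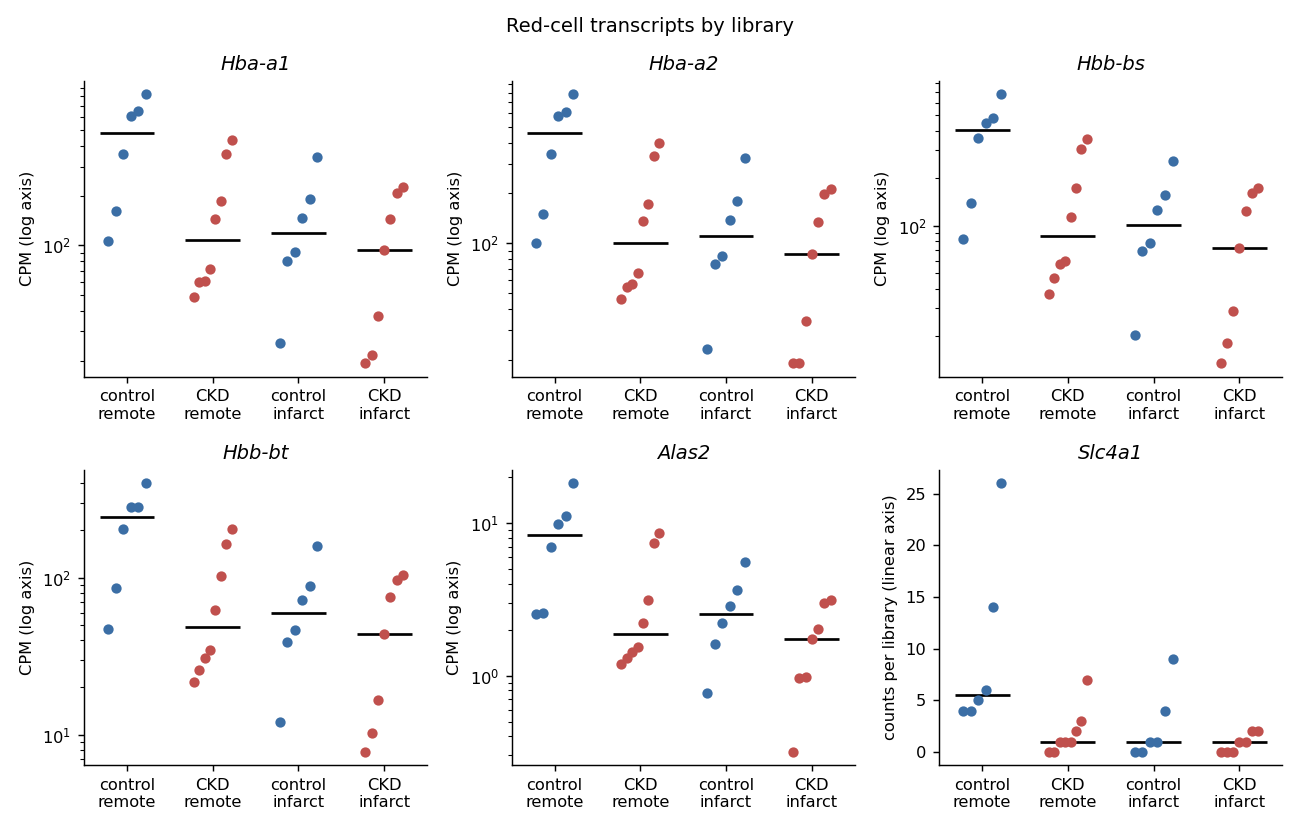
Level of each red-cell transcript in every library, by group. Points are libraries and lines are group medians; the vertical axis is CPM on a log scale for the globins and Alas2, and raw counts on a linear scale for Slc4a1. Control remote libraries have the highest medians, and the CKD and control points overlap in both regions.

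Remote myocardium was compared between diets first. Alpha globin, beta globin and Alas2 all had lower medians in CKD than in control mice, at 0.20 to 0.223 of the control median, but none of the 5 tested members passed the test. Over all 13902 genes tested, 0.0216% were called. The libraries within each diet differed so widely that the groups overlapped.

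Among the alpha chains, Hba-a1 ran from 106 CPM through a median of 482 to 820 in control mice, and from 48.3 through 108 to 432 in CKD mice. Hba-a2 followed it closely, with medians of 459 and 101 CPM. For both, 4 of 8 CKD libraries lay below the lowest control library, and no CKD library reached the control median. The fitted log2 fold change was -1.42 ± 0.56 (SE) for Hba-a1 (edgeR quasi-likelihood test, adjusted p = 0.356) and -1.45 ± 0.56 for Hba-a2 (edgeR adjusted p = 0.346).

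Among the beta chains, Hbb-bs measured 82.9 CPM at the lowest, 405 at the median and 679 at the highest in control mice, with a mean of 365 ± 223 (SD, n = 6). In CKD mice it measured 36.97, 86.4 and 357 CPM, with a mean of 144 ± 125 (SD, n = 8). The CKD libraries fell into 4 between 36.97 and 59.9 CPM, those of mice 9176, 9173, 9175 and 9178, and 4 between 113 and 357 CPM, those of mice 9179, 9172, 9177 and 9174. In control mice, 9171 and 9180 were low, at 82.9 and 140 CPM, and the other 4 were at 361 CPM or more. The fitted log2 fold change was -1.35 ± 0.55 for Hbb-bs (edgeR adjusted p = 0.367) and -1.43 ± 0.55 for Hbb-bt (edgeR adjusted p = 0.350). Hbb-bt had medians of 243 CPM in control and 48.7 CPM in CKD mice.

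Alas2 showed a similar layout at a much lower level. It ranged from 2.55 through a median of 8.43 to 18.3 CPM in control mice and from 1.19 through 1.88 to 8.60 CPM in CKD mice. In 5 of 8 CKD libraries it was below the lowest control value. Its fitted log2 fold change was -1.33 ± 0.53 (edgeR adjusted p = 0.366).

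Slc4a1 was too scarce for the test: it did not pass the filter on low counts. Control remote libraries held 4 to 26 counts (59 in all), and CKD remote libraries held 0 to 7 (15 in all). In 2 CKD libraries, those of mice 9176 and 9178, the count was 0. By 3 counts this allows up to 0.116 and 0.149 CPM, for counting error only. These limits use the library totals before scaling, unlike the other CPM values. The scaling factors of these libraries were 0.876 and 0.796, so the limits are higher on the scaled totals. With no filter its log2 fold change was -2.43 ± 0.72 (edgeR adjusted p = 0.253).

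The fold changes of the tested members in remote tissue had unadjusted p-values from 0.0194 to 0.0265 in edgeR, and 1626 of the 13902 genes had one under 0.05. limma-voom with sample weights gave larger differences, from -1.93 for Alas2 to -2.34 for Hbb-bt, again with no call (adjusted p = 0.172 to 0.212). Fewer red cells in the tissue and less RNA per cell cannot be told apart in bulk libraries.

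In the infarct the members were again lower at the median in CKD mice, apart from Slc4a1, and the groups overlapped. Median levels in CKD mice were 0.679 of the control median for Alas2 and 0.711 to 0.790 for the globins, and none of the 5 tested members passed the test, while 20.3% of the 14358 genes tested did, with 7.14% lower. That background was unstable: 0 genes were called by edgeR without CKD mouse 9172 or 9177, or without control mouse 9171, 9182 or 9183. Hbb-bs ran from 20.2 through 101 to 256 CPM in control mice and from 13.5 through 72.0 to 175 CPM in CKD mice. Only the libraries of CKD mice 9178 and 9175 lay below the lowest control, and only that of control mouse 9183 lay above the highest CKD library.

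The infarct log2 fold change of Hbb-bs was -0.53 ± 0.64 (edgeR adjusted p = 0.546), and the other globins lay between -0.50 and -0.52. Alas2 had a median of 2.55 CPM in control and 1.73 CPM in CKD mice, with a log2 fold change of -0.75 ± 0.49 (edgeR adjusted p = 0.263). Leaving out the infarcts of CKD mice 9172 and 9179, which had high muscle levels, Hbb-bs moved to -1.001 (edgeR adjusted p = 0.374). Without control mouse 9183 it moved to -0.13 (edgeR adjusted p = 0.899). Slc4a1 had 0 to 9 counts in control and 0 to 2 in CKD infarct libraries. Muscle content differed in the same comparison, with 6 of 12 cardiomyocyte genes called higher in CKD and a median log2 fold change of 1.497 over the list, and its part in the globin values was not tested.

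Infarct was then compared with remote tissue. In control mice, all 5 tested members were called lower in the infarct, as were 33.2% of 14770 genes, with 63.9% called in either direction. Every control mouse had less of each member, Slc4a1 included, in its infarct than in its remote library. In CKD mice the same members were lower in most animals but passed the test only when each mouse was compared with itself.

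For the alpha chains in control mice, the infarct medians were 119 CPM for Hba-a1 and 111 CPM for Hba-a2, against 482 and 459 CPM in remote tissue. Hba-a1 fell by 1.62 on the log2 scale (SE 0.69, edgeR adjusted p = 0.0423) and Hba-a2 by 1.64 (SE 0.69, edgeR adjusted p = 0.0416). Hbb-bs fell from a mean of 365 ± 223 CPM to 117 ± 82.8 CPM (SD, n = 6 each), with a log2 fold change of -1.64 ± 0.69 (edgeR adjusted p = 0.0399). Hbb-bt had the same fold change, -1.64 ± 0.69 (edgeR adjusted p = 0.0411).

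The infarct held 18.4% to 57.0% of the remote Hbb-bs level in the 6 control mice. Mice 9184, 9170 and 9171 had the lowest shares, and mice 9183 and 9180 the highest. Alas2 fell by 1.61 on the log2 scale (SE 0.58, edgeR adjusted p = 0.0183). Slc4a1 went from 59 counts in all to 15, a log2 fold change of -2.40 ± 0.81 when no filter was applied (edgeR adjusted p = 0.0159).

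These calls were close to the threshold in the fit that ignores which libraries share a mouse. Leaving out the remote library of mouse 9184 left 0 members called, and leaving out any of 7 other control libraries left Alas2 alone, among them the infarct library of mouse 9171. Counting the remote library of mouse 9179 as control also left Alas2 alone (edgeR adjusted p = 0.0324). With the mouse as a block, the 5 members had log2 fold changes from -1.49 to -1.68 and edgeR adjusted p-values from 0.00123 to 0.00313, with 63.1% of genes called, and all 5 stayed called whichever mouse was left out.

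**Figure D2:**
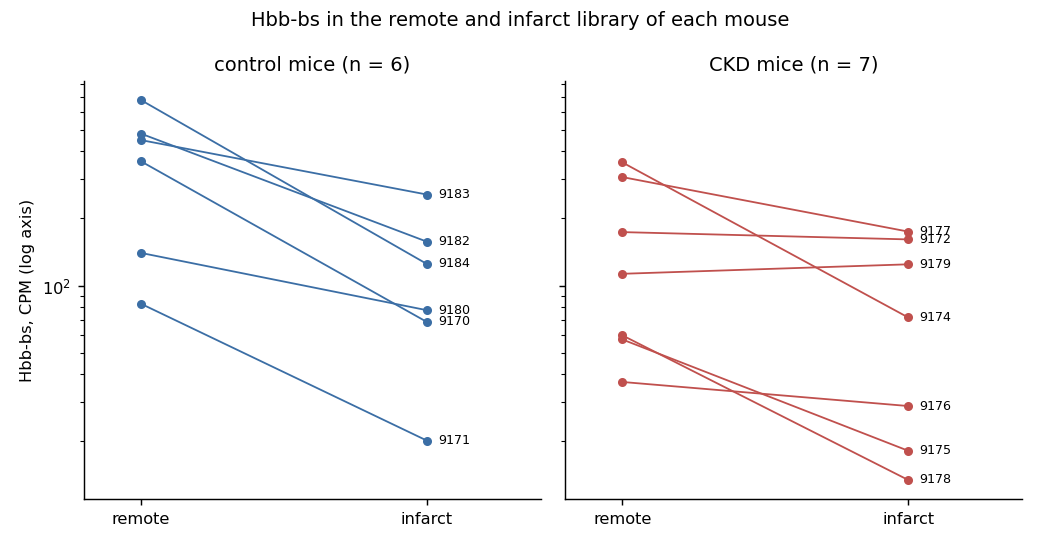
Hbb-bs in the remote and infarct library of each mouse, in CPM on a log axis, with control mice on the left and CKD mice on the right. Each line is a mouse; all 6 control lines and 6 of 7 CKD lines go down, and mouse 9179 goes from 113 to 125 CPM.

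In CKD mice, Hbb-bs had a mean of 84.7 ± 68.7 CPM in the infarct (SD, n = 7). It was lower in the infarct in 6 of 7 mice, and the infarct held 20.2% to 110% of the remote level. Mice 9174 and 9178 had the lowest shares, 20.2% and 22.5%, whereas mice 9172 and 9179 held 92.7% and 110%. Hba-a1 was lower in 5 of 7 mice, and Hba-a2, Hbb-bt and Alas2 each in 6 of 7. Every mouse in which a globin or Alas2 was not lower was 9172 or 9179, whose infarct libraries had the high cardiomyocyte and low Col1a1 values given above. The part of the sampled tissue in this result was not tested.

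Without regard to the mouse, 0 of 5 members were called in CKD mice, while 45% of genes were, 24.7% higher and 20.2% lower. The log2 fold changes were -0.77 ± 0.61 for Hbb-bs (edgeR adjusted p = 0.301), -0.67 for Hba-a1, -0.66 for Hba-a2, -0.68 for Hbb-bt and -0.99 ± 0.54 for Alas2 (edgeR adjusted p = 0.134). With the mouse as a block, all 5 were called lower, and 45.4% of genes were called. Hbb-bs then had -0.98 ± 0.32 (edgeR adjusted p = 0.0315), Alas2 -0.95 ± 0.31 (edgeR adjusted p = 0.0339) and the other globins -0.86 to -0.92. These paired calls were lost without mouse 9174, 9175, 9177 or 9178, and Hbb-bs alone remained without mouse 9176. Without mice 9172 and 9179 the blocked fold change of Hbb-bs was -1.41 ± 0.27. That run was added after seeing the data. It leaves out the mice in which the globins fell least, so a larger drop was built in and it adds nothing to the paired calls.

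The regional difference was not shown to depend on diet. The difference between the CKD effect in the infarct and in remote tissue was 0.87 ± 0.90 on the log2 scale for Hbb-bs (edgeR adjusted p = 0.649) and 0.62 ± 0.79 for Alas2 (edgeR adjusted p = 0.725). Hbb-bt had 0.95, Hba-a1 0.96 and Hba-a2 0.98, each with an SE of 0.91. None of the 5 members was called, and 0% of 14770 genes were in edgeR, with 2787 at an unadjusted p under 0.05, 10 called by DESeq2 and 6 by limma-voom. With the mouse as a block the member differences were 0.53 to 0.80 (edgeR adjusted p = 0.338 to 0.561).

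**Figure D3:**
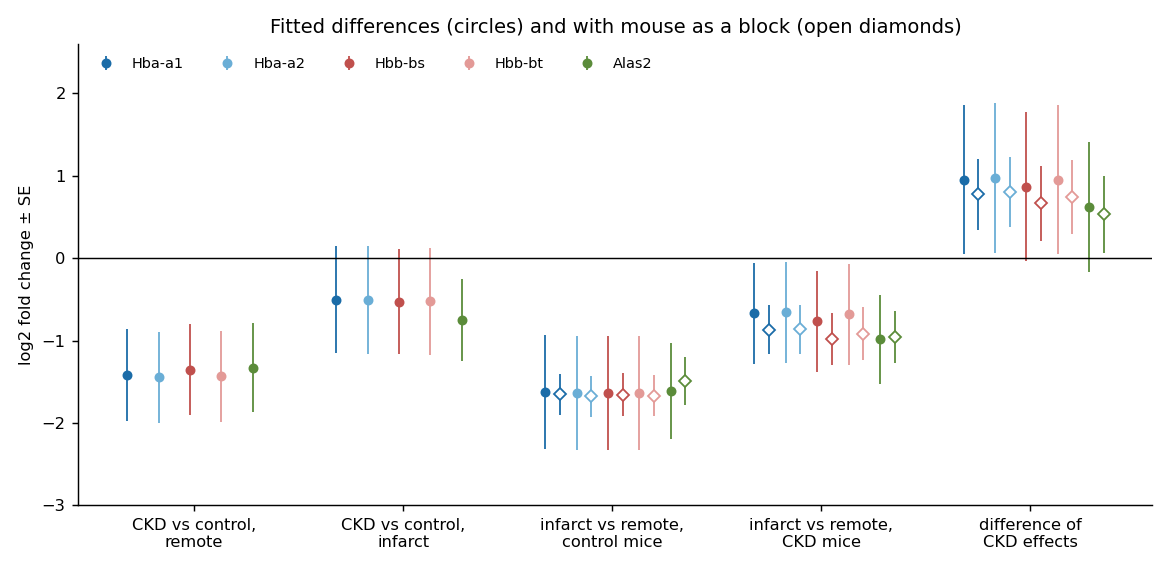
Fitted log2 fold changes of the 5 tested members in each comparison, with bars of 1 SE. Filled circles are fits without the mouse and open diamonds are fits with the mouse as a block; in control mice the regional values lie between -1.49 and -1.68, and the diamonds have the shorter bars.

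The 5 tested members varied together from library to library. Over the 14 remote libraries, log2 CPM of Hbb-bs correlated with Hbb-bt at r = 0.999, with Hba-a1 at 0.995, with Hba-a2 at 0.994 and with Alas2 at 0.973. Over the 13 infarct libraries the values were 0.9996, 0.998, 0.997 and 0.906. Reads shared between the copies of a pair bear on the values within that pair, but the alpha and beta transcripts share no 31-base window. Slc4a1 followed less closely, at 0.839 in remote tissue and 0.614 in the infarct.

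Alas2 is not a globin gene, and its transcript was not compared with the globin transcripts for shared windows. The Spearman rho of Alas2 with Hbb-bs was 0.947 in remote tissue (permutation p = 2e-05, adjusted 4.57e-05) and 0.879 in the infarct (permutation p = 0.00018, adjusted 0.00032). Pearson's r had a permutation p of 1e-05 in remote tissue, the smallest that 100000 resamples can give, and 4e-05 in the infarct. Within diets r was 0.962 and 0.902, and without the 2 libraries farthest from the median it was 0.983 and 0.932. The adjustment covered 16 relations.

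A mouse with much globin RNA in remote tissue also tended to have much in its infarct. Over 13 mice, Hbb-bs in the remote library correlated with Hbb-bs in the infarct at r = 0.782 (permutation p = 0.00243, adjusted 0.0031) and rho = 0.687 (permutation p = 0.0112, adjusted 0.0137). Without the 2 mice farthest from the median r was 0.795, and after removing the diet means it was 0.785. Alas2 gave r = 0.724 and rho = 0.703 (permutation p = 0.00466 and 0.00915). Slc4a1 gave r = 0.554, which rested on 2 mice: without them it was -0.055.

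**Figure D4:**
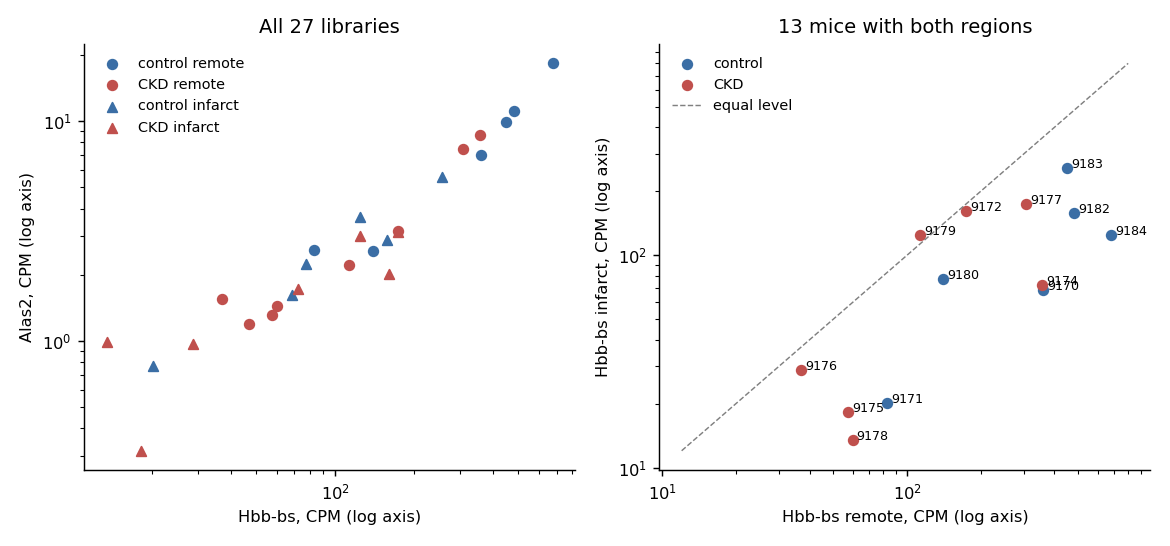
Left, Alas2 against Hbb-bs in all 27 libraries; right, infarct against remote Hbb-bs in 13 mice, all in CPM on log axes. Alas2 follows Hbb-bs in both regions and diets, and 12 of the 13 mice lie below the dashed line of equal level.

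The proportions between the members were far steadier than their levels. Alpha globins made up 55.3% to 64.3% of globin counts, with a mean of 59.9%, while globin counts themselves ran from 1026 to 41260 per library. Hba-a2 was 47.0% to 49.7% of alpha counts, and Hbb-bt 34.9% to 38.7% of beta counts. These last shares are splits between copies with much shared sequence, and the part of read division in their steadiness was not tested. Alas2 had 3.05 to 16.6 counts per 1000 globin counts, with a median of 6.17.

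None of 12 exact two-sided permutation tests of these proportions, over diet in each region and over region within mice, passed adjustment. The lowest p was for the share of Hbb-bt among beta counts in remote tissue, 36.03% ± 0.909 in CKD mice (SD, n = 8) and 37.2% ± 1.003 in control mice (SD, n = 6), with an exact permutation p of 0.0376 (adjusted 0.452). Alas2 per 1000 globin counts was 6.44 ± 1.62 in CKD (SD, n = 8) and 5.91 ± 1.14 in control remote libraries (SD, n = 6), with an exact permutation p of 0.561.

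**Figure D5:**
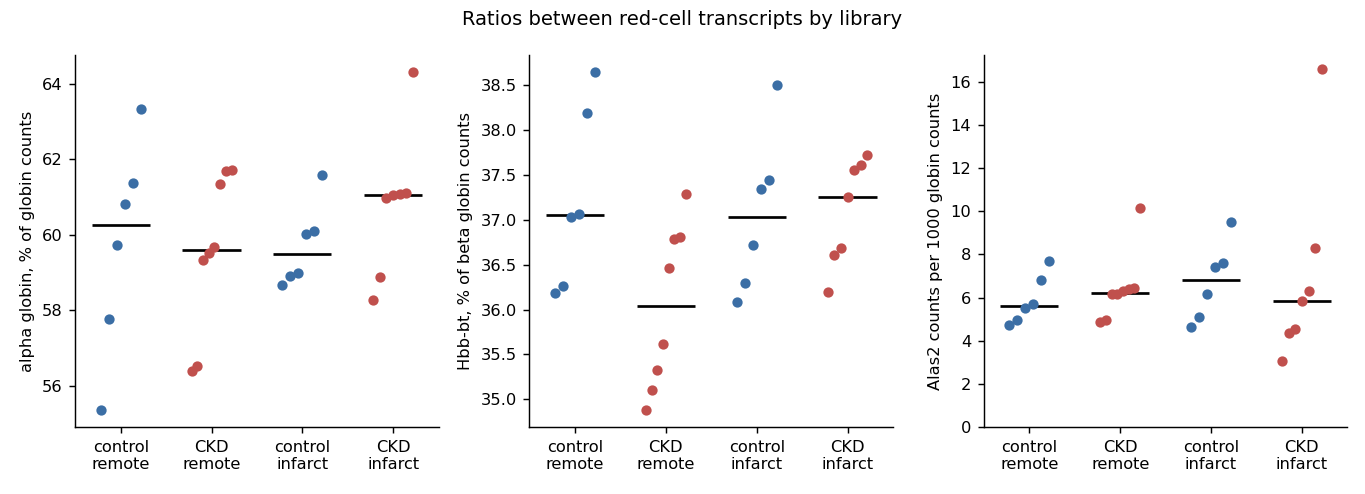
Proportions between the members in every library by group: alpha globins as a percentage of globin counts, Hbb-bt as a percentage of beta globin counts, and Alas2 counts per 1000 globin counts. Points are libraries and lines are medians. The first 2 vertical axes do not start at 0; the highest Alas2 value is 16.6, in the infarct of CKD mouse 9178.

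Within each group the members varied more than most genes. The SD of log2 CPM of Hbb-bs was 1.17 in control remote, 1.26 in CKD remote, 1.26 in control infarct and 1.54 in CKD infarct libraries, where the median gene had 0.29, 0.21, 0.23 and 0.36. Across the 5 members and 4 groups these SDs lay between the 93.9th and the 99.3rd percentile of all genes.

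After removing group means, the genes whose log2 CPM was most like that of Hbb-bs over the 27 libraries were the other tested members: Hbb-bt (r = 0.999), Hba-a1 (0.996), Hba-a2 (0.994) and Alas2 (0.925), out of 13258 genes compared. All genes compared had a mean of at least 1 CPM. A gap separated the members from the next 10 genes. These were Pim3 (0.771), a kinase, Tcf23 (0.767), Galnt15 (0.767), Bpgm (0.761), which makes the 2,3-bisphosphoglycerate that lowers the oxygen affinity of haemoglobin, Mturn (0.742), Hecw2 (0.728), Prodh (0.715), a proline-degrading enzyme, Tnnt1 (0.714), a troponin, Cirbp (0.712), an RNA-binding protein, and Cbx7 (0.709). Bpgm was at 23.9 CPM in control remote and 23.7 CPM in CKD remote libraries at the median, while in the infarct of control mice it fell by 0.65 on the log2 scale (edgeR adjusted p = 0.000354).

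The remaining genes of the red-cell list gave few calls between diets. Of 24 further red-cell genes, 23 were found and 11 were tested between diets. In remote tissue 0 were called, with a median log2 fold change of 0.14 against -0.0049 for all genes. In the infarct 3 were called higher in CKD: Ank1, an ankyrin (1.47), Rhd, a blood-group protein (1.498), and Tfrc, the transferrin receptor (1.62). Of all genes, 13.1% were called higher there, the cardiomyocyte list had a median of 1.497, and none of these calls held without CKD mouse 9172 or 9177 or control mouse 9171, 9182 or 9183. In control mice 7 of 12 were called lower in the infarct and 2 higher, beside 33.2% and 30.7% of all genes. Several genes of red cells and their precursors were at or near 0: Epb42 had at most 2 counts in a library, Gata1 3, Klf1 11 and Kel 1.

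Hba-x, Hbb-y and Hbb-bh2 were at 0 in all 27 libraries. Of 9 further globins, only Mb, the myoglobin of muscle, and Cygb passed the filter. Mb fell by 2.23 on the log2 scale in the infarct of control mice (edgeR adjusted p = 5.6e-05), and Cygb rose by 0.68 (edgeR adjusted p = 0.002). Neither was called between diets.

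The enzymes of heme synthesis outside the red-cell form were also examined. Of 8 tested, 0 were called in remote tissue. In the infarct 4 were called higher in CKD, among them Alas1, the housekeeping form of the first enzyme (1.19), Alad (0.91) and Urod (0.56). These calls too stood beside 13.1% of all genes and a cardiomyocyte median of 1.497, and were lost when any one of the same 5 mice was left out. In control mice 7 of 8 were called lower in the infarct, beside 33.2% of all genes. Genes that clear haemoglobin and heme were mostly higher in the infarct. In control mice 6 of 11 tested were called higher and 2 lower, beside 30.7% and 33.2% of all genes. In CKD mice 7 were called higher and 0 lower, beside 24.7% and 20.2% of all genes. Hmox1, which breaks down heme, rose by 2.65 and Hp, haptoglobin, by 4.12 in control mice. The 2 called lower there were Cd163 (-1.48) and Fth1 (-0.42). The Hp value was uneven: control infarct libraries ran from 11.3 through a median of 39.2 to 536 CPM, against a control remote median of 5.42 CPM. Between diets Slc40a1, the iron exporter, was the 1 called, lower in the CKD infarct (-1.03), where 7.14% of all genes were called lower. That call too was lost when any 1 of the same 5 mice was left out.

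Markers of other blood cells gave no call between diets in remote tissue. In remote tissue the neutrophil sum was 9.09 ± 2.49 CPM in control (SD, n = 6) and 20.7 ± 9.25 CPM in CKD libraries (SD, n = 8), with 0 of 5 genes called. The platelet sum was 32.3 ± 4.60 and 45.9 ± 22.99 CPM, with 0 of 5 called. B cell sums were 5.48 ± 2.72 and 5.23 ± 2.74 CPM with 0 of 4 called, and T cell sums 5.45 ± 2.33 and 4.57 ± 1.19 CPM with 0 of 2 called. In the infarct of control mice 8 of 8 neutrophil, 2 of 7 platelet, 2 of 7 B cell and 6 of 7 T cell genes were called higher. Over all genes 30.7% were, so the platelet and B cell shares were near the background.

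Heart cell markers moved with the regional result. In control mice 8 of 8 endothelial genes were called lower in the infarct, with a median log2 fold change of -0.76. The same held for 12 of 12 cardiomyocyte genes, with a median of -2.26, beside 33.2% of all genes. In CKD mice 7 of 8 endothelial and 3 of 12 cardiomyocyte genes were called lower, beside 20.2% of all genes. The cardiomyocyte share was near that background. The log2 fold change was below 0 for 8 of 8 and 12 of 12 genes, with medians of -0.50 and -0.93. In remote tissue neither list had a call between diets, and the medians were -0.02 and 0.24. In the infarct 0 of 8 endothelial and 6 of 12 cardiomyocyte genes were called higher in CKD, beside 13.1% of all genes. The medians were 0.11 and 1.497. The part of vessel or muscle content in the lower globin levels of the infarct was not tested.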

How the data were processed

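The authors deposited whole-number counts per gene for 27 libraries. The submitters' processing notes name kallisto 0.48.0 and build GRCm39; how its estimates became counts is not given in the sources used here. Totals ran from 14255456 to 42566498 counts.

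Genes were filtered with filterByExpr, scaled by TMM and tested with the quasi-likelihood test of edgeR 4.0.16 (R 4.3.3), calling genes at a Benjamini-Hochberg adjusted p under 0.05. Diets were compared within a region; regional comparisons and the difference used all 27 libraries. CPM are TMM-scaled, apart from the limits given for Slc4a1 counts of 0, and correlations used log2 CPM with a prior count of 2. DESeq2 1.42.0 and limma 3.58.1 (voom) were alternatives. Exact and permutation tests were run in Python 3.11.15 with numpy 2.4.6, and promoters were aligned with Biopython 1.88. Fits were tested on simulated counts, and exact tests on small sets of numbers with known answers. The test of the fits first required a set power, which the difference between regions missed. That criterion was then replaced by ones of fitted size, direction and false calls.

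Groups came from titles. The remote library of mouse 9179, whose treatment label differs, was also left out or counted as control. Titles tie both regions to a mouse, and residual correlations per mouse ran from -0.10 to 0.40, with a median of 0.17. No libraries of a group agreed within sampling noise (chi-square over its degrees of freedom at least 9.52).

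The members and gene lists were chosen with earlier results of these data known. Named genes are the members, the most abundant and the called genes of each list, of which the text prints a selection, the 10 genes most like Hbb-bs, and near-absent red-cell genes named after their values were seen. The tests of proportions and some alternatives were added after seeing the data. Ahsp, Ighm and Trac of the lists were not matched. Nothing says whether counting used strand.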

Additional observations from a re-analysis of the deposited data

Results flagged for a closer look

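In 2 of 40 groups of values examined, 1 library lay far from the rest of its group, where chance gives about 1 in 20. Both concern Alas2 per 1000 globin counts in CKD mice. Among the 8 CKD remote libraries mouse 9176 was the highest, at 10.1, where the group median was 6.24. Among the 7 CKD infarct libraries mouse 9178 was the highest, at 16.6, where the group median was 5.83. These values rest on 35 Alas2 counts against 3451 globin counts, and on 17 against 1026, and both libraries were among the lowest of their group in globin counts.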

How the results depend on the processing

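No member was called between diets, or for the difference between regions, under any alternative run, and no member's fold change changed sign. Among the alternative fold changes of members, 543 kept their side of the threshold, 21 passed it and 41 no longer did. In control mice the count of members called lower in the infarct was 3 with no filter (Hbb-bs, Alas2, Slc4a1), 1 with the remote library of mouse 9179 as control (Alas2), and 0 to 5 when leaving out each library. In CKD mice it was 5 with the mouse as a block, and 0 to 5 with the block when leaving out each mouse. It was also 5 with the block and without mice 9172 and 9179, in which the globins fell least, so that count was favoured by the choice. The pairing changed no other call of a member. The relation of Slc4a1 between regions was -0.05477 without the 2 farthest mice and 0.4455 with a prior count of 0.5.

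Counts of all genes called moved more. In remote tissue 3 genes became 97 with DESeq2, 5 with voom or without mouse 9179, and 1 with no filter, the fit of all 27 libraries or mouse 9179 as control. In the infarct 2908 became 4557 with DESeq2, 5067 in the fit of all libraries, 1926 with no filter, and 0 without mice 9172 and 9179. Leaving out each library gave 1 to 6 and 0 to 4651. In CKD mice the regional count of 6644 became 3894 to 7875 with the block leaving out each mouse. The causes were not tested. Low counts limit Slc4a1 and, in the libraries poorest in it, Alas2.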
